A study of Mus musculus with 103 samples.

Results

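The libraries described here are the 9 whose titles place them in the first pharyngeal arch of the mouse embryo at embryonic day E10.5, taken from the 103 samples of an atlas of the developing face. Members were chosen by title alone: 4 libraries labelled mandibular arch and 5 labelled maxillary arch, with libraries titled epidermal ectoderm of these arches kept apart. All embryos were CD1 outbred mice with no mutation or treatment named in the labels, and both groups were collected at the same stage. Tissue was cut from frozen sections by laser capture microdissection, which frees a small chosen area with a laser, and the RNA was amplified and read on 1 whole-transcript microarray per library. The labels do not say how many embryos were used or whether libraries share one. The p-values thus measure only the spread between libraries, pooled over the groups of the series, and may be too small.

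Values are log2 of the ratios the authors deposited, so 0 is the baseline of the table and 1 unit is a doubling. They compare libraries for 1 gene and give no level between genes. Differences are the labelled mandibular minus the labelled maxillary mean, ± SE; each adjusted p comes from limma, with the Benjamini-Hochberg method over 19938 genes. The spread behind SE and p was pooled over 22 labelled groups of 102 samples. In the 9 arrays the SD of log2 ratios over all probe sets with a value ran from 0.39 to 0.93, and the number of arrays limits the precision.

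The first arch forms both jaws. Its upper, maxillary part and its lower, mandibular part are filled by neural crest mesenchyme and covered by surface ectoderm, with a core of mesoderm and a lining of pharyngeal endoderm. Endothelin-1 signalling switches on Hand2, a basic helix-loop-helix factor, in mandibular mesenchyme, where it helps give the lower jaw its identity. Alx1, a paired-class homeodomain factor, is known from the mesenchyme of the frontonasal region and the nasal prominences above the mouth. Krt14 encodes a keratin of basal surface epithelium.

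Alx1 and Hand2 went against the mandibular label, and Krt14 was high in most libraries labelled maxillary arch. Alx1 was 5.21, 5.32, 5.12 and 5.71 in the libraries labelled mandibular arch (replicates 1 to 4) and 3.32, 0.00, 0.46, 0.41 and 2.50 in those labelled maxillary arch (replicates 1 to 5). Every labelled mandibular library was thus above every labelled maxillary one. The difference was 4.00 ± 0.58, or 16-fold, with an adjusted p of 4.9e-06.

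Hand2 was at 0.14, -0.39, -0.04 and -0.51 in the labelled mandibular libraries and at 1.98, 0.18, 2.13, 0.86 and 0.12 in the labelled maxillary ones. The groups overlapped, because the mandibular replicate 1 lay just above the maxillary replicate 5. The difference of -1.26 ± 0.34 put this mandibular gene 2.39-fold lower under the mandibular label, with an adjusted p of 0.044. That call is weak: it was lost under 12 of 22 alternative settings, which all kept the sign. The stretch of 250 bases before the RefSeq start of Hand2 (build GRCm38.p6, whereas the submitters' processing notes name mm9) is shown because this gene carries the conflict with the label, and capitals mark the homeodomain-type motif TAATTA.
Hand2 (chr8:57320733-57320982, + strand): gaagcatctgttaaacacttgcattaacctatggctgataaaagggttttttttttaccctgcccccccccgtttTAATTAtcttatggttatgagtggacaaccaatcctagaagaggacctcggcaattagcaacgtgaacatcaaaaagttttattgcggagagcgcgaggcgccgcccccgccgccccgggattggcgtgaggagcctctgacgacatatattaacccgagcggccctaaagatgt

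Krt14 was flat under the mandibular label, at 0.54, -0.17, 0.27 and -0.23. Under the maxillary label it was 4.28, 4.12 and 5.12 in replicates 1 to 3, 1.26 in replicate 4 and 0.17 in replicate 5. Only the maxillary replicate 5 fell among the mandibular values. The difference was -2.89 ± 0.64, or 7.4-fold lower, with an adjusted p of 0.0085. Without the maxillary replicate 3 it was -2.36 with an adjusted p of 0.059. An exact two-sided permutation test over the 9 libraries, which cannot go below 0.016, gave 0.016 for Alx1, 0.048 for Hand2 and 0.071 for Krt14. The 3 markers were chosen with earlier results of these data known, so these p-values are descriptions and not independent evidence.

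Set against the whole atlas, the labelled mandibular group had the highest mean of Alx1 among 22 groups, 5.34 ± 0.26 (SD, n = 4). The lateral nasal eminence followed at 5.21 ± 0.46 (SD, n = 4), a gap smaller than either spread, and then E9.5 cranial mesenchyme at 4.16 ± 1.56 (SD, n = 6). The labelled maxillary group was sixth at 1.34 ± 1.48 (SD, n = 5), just below the medial nasal prominence at 1.89 ± 1.86 (SD, n = 4). For Hand2 the order was different. The E9.5 mandibular arch led at 2.41 ± 1.02 (SD, n = 5), next to the E10.5 mandibular arch epidermal ectoderm at 2.32 ± 0.98 (SD, n = 4), and the labelled maxillary arch came after them at 1.05 ± 0.96 (SD, n = 5). The labelled E10.5 mandibular arch was rank 13 at -0.20 ± 0.30 (SD, n = 4), and the lateral nasal eminence was at -0.05 ± 0.26 (SD, n = 4). Several groups lay between these, among them the E9.5 maxillary arch at -0.07. Krt14 was highest in the maxillary arch epidermal ectoderm, 3.41 ± 1.88 (SD, n = 4), and the labelled maxillary arch, 2.99 ± 2.14 (SD, n = 5), which did not differ beyond their spread.

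**Figure D1:**
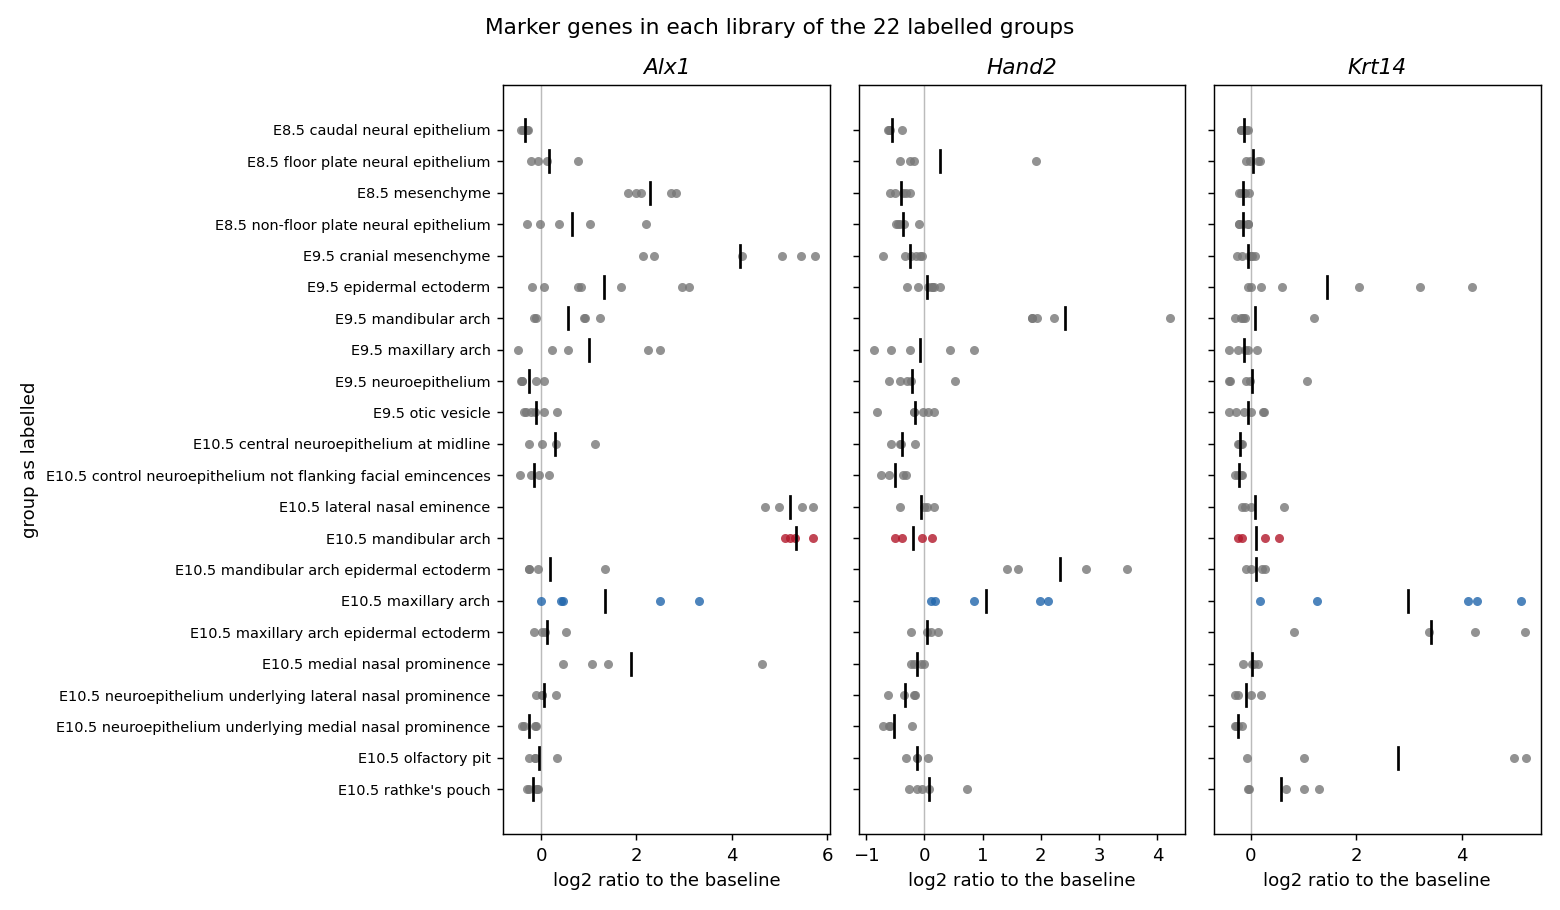
Log2 ratios (x axes) of Alx1, Hand2 and Krt14 in each library of the 22 labelled groups (rows); points are libraries, black bars group means, red the labelled mandibular arch and blue the labelled maxillary arch of E10.5. The red points lie between 5.12 and 5.71 for Alx1, beside the lateral nasal eminence, and between -0.51 and 0.14 for Hand2, where the E9.5 mandibular arch reaches 4.22.

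The same markers were tested against the other libraries that carry these labels. The labelled E10.5 mandibular arch was above the E9.5 mandibular arch in Alx1 (4.78 ± 0.58) and below it in Hand2 (-2.62 ± 0.34), in a comparison in which 6.98% of all genes passed. The labelled E10.5 maxillary arch was above the E9.5 maxillary arch in Hand2 (1.13 ± 0.32, adjusted p = 0.018) and Krt14 (3.12 ± 0.61, adjusted p = 8.9e-04), where 8.56% of all genes passed. Against the libraries labelled mandibular arch epidermal ectoderm, Alx1 differed by 5.15 ± 0.61 and Hand2 by -2.52 ± 0.35, while the difference in Krt14 was 0.00 ± 0.68 with an adjusted p of 1. Those ectoderm libraries go against their own label, since their Krt14 was 0.22, 0.00, 0.28 and -0.08 and their Hand2 was 1.61, 2.77, 1.42 and 3.48. These markers thus bear out neither the mandibular arch label nor the mandibular ectoderm label at E10.5. Whether labels were exchanged was not tested, and the labels cannot settle it, so every difference here compares libraries as labelled, not known tissues. The labelled maxillary arch did not pass against its own ectoderm in Alx1 (1.22 ± 0.58, adjusted p = 0.63), Hand2 (1.01 ± 0.34, adjusted p = 0.29) or Krt14 (-0.42 ± 0.64, adjusted p = 1). Over all genes, 2 of 19938 (0.01%) passed between the labelled maxillary arch and its ectoderm, against 27 (0.135%) between the labelled mandibular arch and its ectoderm; the difference between these counts was not tested.

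Between the 2 labels, 154 of 19938 genes passed at an adjusted p under 0.05 (0.772%): 102 were higher under the mandibular label (0.512%) and 52 were lower (0.261%). Quantile normalization turned this split, with 72 higher and 105 lower genes, so that the share of higher calls moved from 66.2% to 40.7%. Libraries of the labels did not overlap for 378 genes in the higher direction (1.9%) and 187 in the lower (0.938%). When the maxillary replicate 5 was left out, 274 genes passed, 149 higher and 125 lower. A fit of the 9 libraries alone, with no spread borrowed from other groups, left 1 call, that of Nprl2.

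The genes lower under the mandibular label, that is higher under the maxillary one, included 6 surface ectoderm genes. Of 23 measured genes of that list these 6, Krt5, Krt14, Krt15, Grhl3, Perp and Sfn, were lower (0.261% of all genes were) and none was higher. The median difference over the 23 was -1.08, beside 0 for all genes, and 22 of the 23 had a negative difference. The list mean was 0.03, 0.51, -0.01 and 0.24 in the mandibular libraries and 2.09, 1.61, 2.72, 0.70 and -0.11 in the maxillary ones. The labelled maxillary ectoderm libraries had list means from 1.11 to 1.69, a range that the maxillary arch replicates 1 to 3 reached or passed. In tissue of this kind, fewer cells of a type and less RNA per cell cannot be told apart.

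Sfn, which encodes the epithelial 14-3-3 sigma protein, was -0.49, 0.06, -0.21 and -0.11 against 4.98, 3.31, 5.36, 0.68 and 0.65. It did not overlap, and its difference of -3.19 ± 0.65 (adjusted p = 0.0035) was 9.1-fold. Perp, a desmosome protein under p63 control, was 0.00, -0.09, 0.01 and -0.19 against 4.15, 3.69, 4.72, 3.14 and -0.45. It was high in 4 of the maxillary libraries and lowest of all 9 in replicate 5, with a difference of -3.12 ± 0.57 (adjusted p = 6.9e-04). Krt15, a basal keratin, was 0.22, -0.14, 0.13 and -0.24 against 3.13, 4.24, 1.94, 0.23 and 0.42, a difference of -2.0 ± 0.40 (adjusted p = 0.0024). Its values did not overlap, but the mandibular replicate 1 at 0.22 and the maxillary replicate 4 at 0.23 almost met.

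Krt5, the partner of Krt14 in basal keratin filaments, was 0.24, -0.14, 0.15 and -0.23 against 1.86, 0.31, 2.77, 0.26 and 0.26. The values did not overlap, though only the maxillary replicates 1 and 3 stood well clear of the mandibular ones, and the difference was -1.09 ± 0.21 (adjusted p = 0.002). Grhl3, a grainyhead factor of the epidermal barrier, was high in the maxillary replicate 3 alone, at 2.19, and its difference of -0.78 (adjusted p = 0.038) lost its call under 10 of 22 alternatives. Members that did not pass included Cldn6, an early epithelial claudin, at -2.13 ± 0.81 (adjusted p = 0.25), and Krt19 at -2.09 ± 0.96 (adjusted p = 0.40). Epcam, an epithelial adhesion molecule, ran from -1.17 to 2.00 under the mandibular label and from -1.44 to 3.59 under the maxillary one. Cdh1 and Trp63, further epithelial genes, differed by only -0.21 ± 0.11 and -0.26 ± 0.12 and did not pass.

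Of 3 genes outside that list with differences of similar or larger size, Dapl1 and Sostdc1 were named after their values were seen. Dapl1, a small gene related to the death-associated protein Dap, was -0.05, -0.12, 0.17 and -0.36 against 5.04, 6.60, 7.03, 5.84 and 0.15. Cxcl14, a chemokine, was -0.08, -0.21, 0.25 and -0.35 against 5.98, 5.10, 5.49, 4.76 and 0.15. Sostdc1, a secreted BMP and WNT antagonist of epithelia, was 0.03, 0.41, 0.09 and 1.15 against 5.13, 4.91, 4.86, 4.52 and 0.09. In each, 4 maxillary libraries were far above all mandibular ones and replicate 5 lay among them. The differences were -5.02 ± 1.05 (32.5-fold, adjusted p = 0.0042), -4.40 ± 0.62 (21.1-fold, adjusted p = 2.6e-06) and -3.48 ± 0.65 (11.2-fold, adjusted p = 7.9e-04). Without replicate 5 they were -6.22, -5.43 and -4.43.

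The 250 bases before the RefSeq start are printed for Dapl1 and Krt5, which moved in the same direction, on build GRCm38.p6. Both strands of all 32851 promoter windows of this length, of 27025 genes, were searched for TATAAA, for TAATTA and for the AP-2 type motif GCCNNNGGC. Capitals mark matches. TATAAA stood at bases -29 to -24 of Dapl1, and Krt5 held none of the 3 motifs.
Dapl1 (chr2:59484403-59484652, + strand): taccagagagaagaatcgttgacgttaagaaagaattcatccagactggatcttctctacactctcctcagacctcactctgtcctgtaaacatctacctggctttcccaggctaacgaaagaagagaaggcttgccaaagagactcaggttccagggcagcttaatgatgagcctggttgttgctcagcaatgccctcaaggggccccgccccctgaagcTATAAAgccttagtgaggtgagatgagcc
Krt5 (chr15:101712906-101713155, - strand): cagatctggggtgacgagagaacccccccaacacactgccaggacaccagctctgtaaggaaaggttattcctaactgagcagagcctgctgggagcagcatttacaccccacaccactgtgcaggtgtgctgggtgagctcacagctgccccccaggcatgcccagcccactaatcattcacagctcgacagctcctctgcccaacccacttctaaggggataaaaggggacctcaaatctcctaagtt

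TATAAA was in 12.4% of all windows and in 13.9% of the 36 windows found for the lower genes. GCCNNNGGC was in 13.7% of all windows and 11.1% of those 36, and TAATTA was in 4.84% and 5.56%. These shares are descriptions of letters, and windows of 1 gene can overlap.

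Further lower genes without overlap had varied known roles. Rab38, a GTPase of melanosome and lysosome-related transport, was -0.53, -0.02, -0.40 and -0.32 against 1.90, 3.86, 4.12, 0.90 and 0.07 (difference -2.49 ± 0.59, adjusted p = 0.016). Plbd1, a phospholipase B domain gene, was -0.19, -0.17, -0.04 and -0.22 against 3.33, 4.00, 0.65, 1.04 and 0.19 (difference -2.0 ± 0.33, adjusted p = 1.3e-04). Itga3, the alpha chain of a laminin-binding integrin of epithelia, was -0.15, -0.14, 0.04 and -0.06 against 1.33, 0.53, 2.01, 0.63 and 0.08 (difference -0.99 ± 0.17, adjusted p = 3.6e-04). All 3 had their lowest maxillary value in replicate 5. Sdc4, a cell surface proteoglycan, differed by -0.89 ± 0.22 and Atp2c2, a secretory pathway calcium pump, by -0.53 ± 0.12. Irx5, an Iroquois homeobox gene, departed from this order: it was -0.70, -0.76, -0.56 and -0.80 against 0.93, 0.50, 0.14, 1.73 and 1.57, so that replicate 5 was among the high libraries (difference -1.68 ± 0.43, adjusted p = 0.032). F8a at -1.92 ± 0.50, Serpinb1b at -0.46 ± 0.11 and Hoxc5, 1 of 14 measured Hox genes, at -0.35 ± 0.09 completed the non-overlapping genes named by rule. The call of F8a was lost under 12 of 22 alternatives, that of Irx5 under 11 and that of Hoxc5 under 9.

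Fgfr2, the FGF receptor whose main epithelial form answers mesenchymal FGFs, was the 1 lower gene of 18 FGF genes (-0.53 ± 0.12, adjusted p = 0.011). Of all genes, 0.261% were lower. Mlana, a melanosome protein, was 5.34 in the maxillary replicate 2, 1.51 in replicate 4 and 2.78 in replicate 5, with 0.01 in replicate 1 and 0.13 in replicate 3, against -0.24 to 0.16 under the mandibular label (-2.0 ± 0.37, adjusted p = 7.9e-04). Of these 3 high libraries, replicate 2 was also high for Krt14 and Krt15, whereas replicates 4 and 5 were at 0.42 or less for Krt15, and all 3 were arrays of wide spread.

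**Figure D2:**
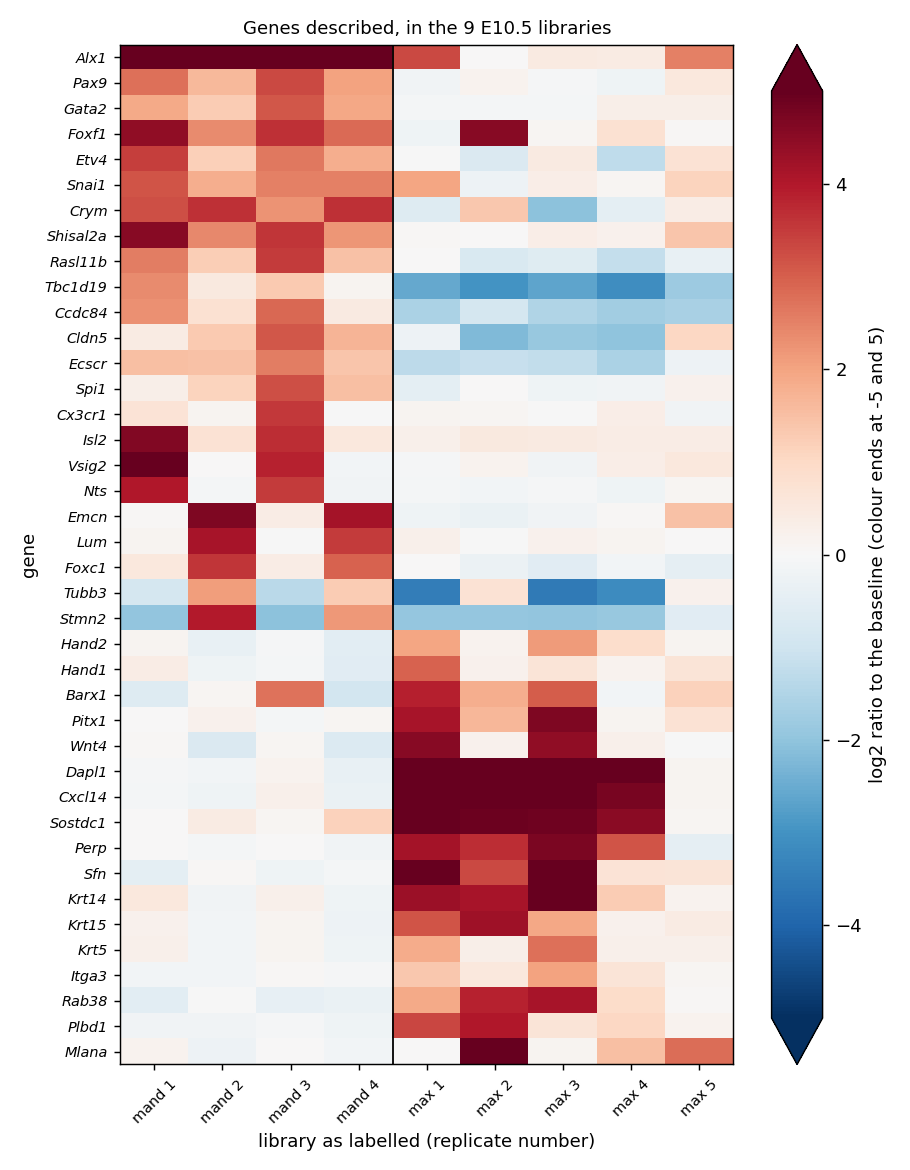
Log2 ratios of 40 genes described (rows) in the 4 labelled mandibular and 5 labelled maxillary libraries (columns, left and right of the black line); colour ends at -5 and 5. Dapl1, Cxcl14, Sostdc1 and Perp are dark red in the maxillary replicates 1 to 4 and near 0 in replicate 5, and Alx1, Pax9 and Gata2 are red in all 4 mandibular libraries.

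Among the named genes higher under the mandibular label, Pax9 and Gata2 had the smallest adjusted p. Pax9, a paired-box factor of pharyngeal endoderm that facial mesenchyme also expresses, was 2.77, 1.64, 3.30 and 2.02 against -0.18, 0.16, -0.05, -0.23 and 0.51. Gata2, a zinc finger factor, was 1.90, 1.26, 3.11 and 1.95 against -0.10, -0.08, -0.09, 0.29 and 0.30. Neither overlapped, and every maxillary library lay near the baseline. The differences were 2.39 ± 0.19 (5.25-fold, adjusted p = 5.7e-17) and 1.99 ± 0.21 (3.97-fold, adjusted p = 3.6e-11). These rest on the spread pooled over all groups, and both genes lost their call in the 9 libraries alone. Pax9 was the only called gene of 15 pharyngeal endoderm genes (0.512% of all genes were higher), and their defining members Foxa1 (0.00 to 0.20) and Foxa2 (-0.33 to 0.11) were near the baseline under the mandibular label. The 250 bases before the Pax9 start are printed because its adjusted p was the smallest of the named genes. These bases held none of the 3 motifs.
Pax9 (chr12:56695221-56695470, + strand): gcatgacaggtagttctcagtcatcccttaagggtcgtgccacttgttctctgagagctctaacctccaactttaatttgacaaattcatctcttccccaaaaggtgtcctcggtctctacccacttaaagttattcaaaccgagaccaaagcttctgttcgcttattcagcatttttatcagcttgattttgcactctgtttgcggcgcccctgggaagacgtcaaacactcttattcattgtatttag

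Of the 94 windows found for the higher genes, 19.1% held GCCNNNGGC, 2.13% held TATAAA and none held TAATTA, beside the shares of all windows given above.

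Several signalling genes stood with them. Etv4, an ETS factor that FGF signalling switches on, was 3.46, 1.21, 2.63 and 1.82 against -0.02, -0.72, 0.44, -1.28 and 0.72, without overlap (2.45 ± 0.52, adjusted p = 0.0052). The call of Etv4 was lost under 6 of 22 alternatives, among them that without the mandibular replicate 1. Foxf1, a forkhead factor downstream of Hedgehog signalling, was 4.44, 2.37, 3.66 and 2.83 against -0.20, 4.56, 0.11, 0.78 and 0.04. Here the maxillary replicate 2 was the highest of all 9, and the difference of 2.27 ± 0.58 (adjusted p = 0.032) lost its call under 13 of 22 alternatives. Snai1, a factor of crest and mesenchyme formation, was 3.13, 1.83, 2.50 and 2.53 against 1.96, -0.24, 0.34, 0.11 and 1.13 (1.84 ± 0.47, adjusted p = 0.03), a call lost under 12 of 22 alternatives. Junb, an immediate early gene, did not overlap (1.20 ± 0.31, adjusted p = 0.033), and its call was lost under 10. Etv4 and Foxf1 were the only higher genes among 18 FGF and 13 Hedgehog genes, Snai1 among 11 neural crest and glia genes, and Junb among 14 immediate early genes. Of all genes, 0.512% were higher.

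The remaining higher genes named by rule had varied known roles. Crym, a thyroid hormone binding protein, was 3.23, 3.67, 2.25 and 3.64 against -0.63, 1.34, -2.06, -0.49 and 0.36 (3.49 ± 0.87, 11.3-fold, adjusted p = 0.026). Tbc1d19 was 2.37, 0.47, 1.32 and 0.13 against -2.56, -3.00, -2.62, -3.11 and -1.83 (3.70 ± 0.82, adjusted p = 0.0085), so its difference came mostly from maxillary values far below the baseline. Ccdc84 (3.05 ± 0.72), Nprl2 (2.69 ± 0.68), a subunit of a nutrient-sensing complex, and Mmaa (2.64 ± 0.68), of vitamin B12 metabolism, also had most or all maxillary libraries below 0. Shisal2a was 4.57, 2.41, 3.58 and 2.20 against 0.04, 0.00, 0.34, 0.22 and 1.40 (2.79 ± 0.52, adjusted p = 7.9e-04). Rasl11b (2.78 ± 0.63), a small GTPase, and Gpt (2.75 ± 0.69), an alanine aminotransferase, followed. Cdhr4 (2.54 ± 0.57) and Wdr54 (2.84 ± 0.63) were highest in the mandibular replicate 3, at 6.31 and 3.55, and without that library their adjusted p rose to 0.35 and 0.15. Pantr1, a noncoding RNA beside Pou3f3, was 4.36, 3.53, -0.30 and 3.96 against -1.44, -1.67, -0.05, -0.68 and -0.18, so the mandibular replicate 3 overlapped the maxillary values (3.69 ± 0.98, adjusted p = 0.043). The calls of Pantr1, Mmaa and Gpt were each lost under 12 of 22 alternatives and those of Crym and Nprl2 under 10. That of Ccdc84 was lost under 7, that of Rasl11b under 6 and those of Tbc1d19 and Shisal2a under 5. Ccdc84 and Rasl11b were among the calls lost without the mandibular replicate 3. All these genes kept their sign.

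Among the jaw patterning genes of the lists below, Hand2 and Alx1 passed between the labels, where 0.772% of all genes did. Of 11 measured genes of the mandibular endothelin and Hand programme, Hand2 was lower and the other 10 did not pass, with a median difference of -0.11. Hand1, the relative of Hand2, was 0.37, -0.20, -0.10 and -0.55 against 2.93, 0.22, 0.65, 0.18 and 0.65 (-1.05 ± 0.45, adjusted p = 0.35). Gsc, a homeobox gene of the arches, was 3.28, 2.97, 5.21 and 1.98 against 4.45, 0.00, 3.46, 0.71 and 1.56, overlapping widely. Dlx5 and Dlx6, which act with Hand2 in the lower jaw, differed by 0.02 ± 0.85 and -0.07 ± 0.34. Of 10 maxillary and proximal arch genes none passed, with a median of -0.17, and Dlx1 and Dlx2 differed by -0.75 ± 0.38 and -0.51 ± 0.22. Of 8 frontonasal and nasal prominence genes only Alx1 passed, with a median of 0.02. Alx4, its relative, differed by 0.19 ± 0.13, and Six2, of nasal and jaw mesenchyme, was 0.77, 2.87, 1.78 and 3.05 against 1.19, 1.20, -0.63, 1.57 and 1.48. Lhx8, a LIM homeobox gene of jaw mesenchyme, was 4.29, -0.39, 4.36 and -0.42 against 3.12, 0.24, 2.12, 0.34 and 2.70, high and low libraries occurring under both labels.

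Mesenchyme genes were present under both labels. Twist1, a crest mesenchyme factor, was 2.87, 2.31, 2.75 and 2.49 against 2.79, 2.03, 2.04, 2.49 and 2.11, a difference of 0.31 ± 0.67. Prrx1 was 0.52, 0.89, 3.54 and 2.47 against 2.56, 2.43, 0.44, 2.32 and 2.10. None of 20 mesenchyme genes passed, their median difference was 0.23, and 14 of the 20 had a higher mean under the mandibular label, beside 9838 of all 19938 genes. The list mean ran from 0.48 to 1.24 in the mandibular and from 0.20 to 0.95 in the maxillary libraries. Foxc2, a forkhead factor of head mesenchyme, had the largest difference, 2.63 ± 0.72 (adjusted p = 0.052). The collagen gene Col3a1 did not overlap (0.69, 0.48, 1.44 and 1.02 against 0.47, 0.29, -0.04, -0.45 and 0.06) but did not pass (0.84 ± 0.27, adjusted p = 0.13). Of 17 pharyngeal arch mesenchyme genes, Hand2 alone passed, where 0.772% of all genes did.

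Most vessel and macrophage genes had higher means under the mandibular label. Of 14 endothelial genes, 12 had a positive difference and Cldn5, the endothelial tight junction claudin, passed (0.512% of all genes were called higher), with a median of 0.45. Of all 19938 genes, 9838 had a positive difference. Cldn5 was 0.41, 1.30, 3.10 and 1.69 against -0.26, -2.22, -1.90, -2.02 and 1.02, so that only the maxillary replicate 5 reached the mandibular range (2.70 ± 0.59, adjusted p = 0.0066). Without the mandibular replicate 3 its adjusted p was 0.10. Ecscr, an endothelial surface protein outside the list, was 1.49, 1.47, 2.55 and 1.38 against -1.32, -1.14, -1.25, -1.57 and -0.24 (2.82 ± 0.75, adjusted p = 0.043), a call lost under 15 of 22 alternatives. The endothelial list mean was 0.31 to 0.87 in the mandibular libraries and -0.71 to 0.49 in the maxillary ones, while Kdr and Tek, defining receptors of endothelium, stayed between -0.14 and 0.32 in all 9.

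Of 13 macrophage genes, 12 had a positive difference and 2 passed (0.512% of all genes were called higher), with a median of 0.37. Spi1, the myeloid factor PU.1, was 0.30, 1.10, 3.24 and 1.52 against -0.50, 0.00, -0.23, -0.17 and 0.21 without overlap (1.68 ± 0.36, adjusted p = 0.0047). Cx3cr1, the fractalkine receptor, was 3.54 in the mandibular replicate 3 and between -0.19 and 0.68 in the other 8 libraries (1.02 ± 0.26, adjusted p = 0.028), a call lost under 11 of 22 alternatives. Without that replicate the differences of Spi1 and Cx3cr1 were 1.11 (adjusted p = 0.17) and 0.20 (adjusted p = 0.81). The mandibular replicate 3 also held C1qb at 4.15 and C1qa at 3.13, complement genes of macrophages. C1qb was high in the maxillary replicate 1 too, at 3.03. Cd68, another gene of the list, was 2.32 in the mandibular replicate 3 and 2.26 in the mandibular replicate 2. The highest maxillary value of Cd68 was in replicate 5. The list mean of the mandibular replicate 3, 1.64, compares with 0.23, 0.56 and 0.53 in the other mandibular and -0.01 to 0.21 in the maxillary libraries. The part of vessel and macrophage RNA in the other differences was not tested.

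**Figure D3:**
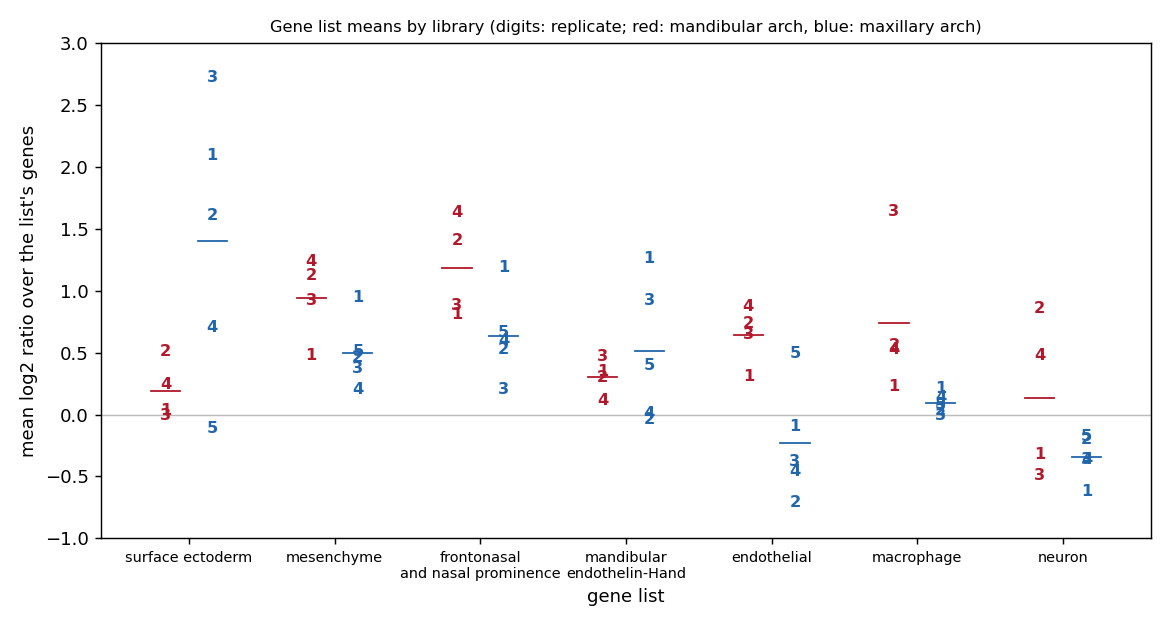
Mean log2 ratio over the genes of 7 lists (x axis) in each of the 9 libraries; digits are replicate numbers, red the labelled mandibular and blue the labelled maxillary arch, lines the group means. The surface ectoderm mean reaches 2.72 in the maxillary replicate 3 and is -0.11 in replicate 5, and the macrophage mean is 1.64 in the mandibular replicate 3.

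The 4 labelled mandibular libraries fell into pairs that the label does not explain, a pattern seen in the data and given without a test. Across all genes, replicates 2 and 4 correlated at a Pearson r of 0.74 and replicates 1 and 3 at 0.53, but replicates 1 and 2 at only 0.13 and replicates 1 and 4 at 0.06; genes are not independent, and the arrays share the baseline. Isl2, a LIM homeobox gene, was 4.61 and 3.71 in replicates 1 and 3 but 0.73 and 0.51 in replicates 2 and 4. Vsig2 was 5.15 and 3.84 against 0.01 and -0.12, and Nts, which encodes neurotensin, was 4.01 and 3.51 against -0.09 and -0.16. All 3 passed between the labels, so these calls rest on the mandibular replicates 1 and 3. Without replicate 3 the adjusted p was 0.036 for Isl2, 0.1 for Vsig2 and 0.013 for Nts. Without replicate 1 the differences were 1.27 for Isl2 (adjusted p = 0.063), 1.09 for Vsig2 (0.18) and 1.16 for Nts (0.012). Among arrays of narrow spread, which leaves out both replicates, they were 0.27, 0.06 and -0.05, none of which passed.

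Other genes ran the opposite way. Emcn, an endothelial sialomucin, was 4.68 and 4.17 in replicates 2 and 4 and 0.04 and 0.39 in replicates 1 and 3. Lum, a matrix proteoglycan, was 4.14 and 3.48 against 0.15 and -0.03, and Foxc1, a head mesenchyme factor, 3.56 and 2.93 against 0.53 and 0.36. Stmn2, a neuronal growth cone protein, was 3.96 and 2.15 against -1.98 and -2.06, and Tfap2b, an AP-2 factor of crest, 2.50 and 2.88 against -0.39 and -0.37. None of these 5 passed between the labels. The pairs also differ in the arrays: the 5th percentile of log2 ratios was -1.90 and -1.59 in replicates 1 and 3 and -0.43 and -0.32 in replicates 2 and 4. The part of array spread in the pairs was not tested. Alx1, at 5.12 to 5.71, and Pax9, at 1.64 to 3.30, were high in both pairs.

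Array spread also divided the maxillary libraries, with a 5th percentile of -1.24, -1.92 and -1.85 in replicates 2, 4 and 5 and of -0.58 and -0.65 in replicates 1 and 3. Comparing only arrays of wide spread gave 4.20 for Alx1 (adjusted p = 3.3e-04), 2.89 for Pax9 (5.3e-17) and -1.45 for Krt14 (0.50). Comparing only arrays of narrow spread gave 3.63 for Alx1 (adjusted p = 0.016), 1.94 for Pax9 (1.7e-08) and -4.89 for Krt14 (1.4e-04). Alx1, Pax9, Gata2, Cxcl14, Sostdc1 and Plbd1 passed in both sets, and Krt14, Krt15, Krt5, Perp, Sfn and Dapl1 passed only among the narrow arrays. The wide set holds the maxillary replicates 4 and 5, the lowest of their label for Krt14 (1.26 and 0.17). Array spread and library thus cannot be told apart here, and the difference between the sets was not tested.

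The maxillary replicate 5 stood apart from the other libraries of its label for many called genes. Of the 52 lower genes it was the lowest maxillary library for 29 and the highest for 0. Of the 102 higher genes it was the highest maxillary library for 50 and the lowest for 9. The same shares over all genes were not counted. These genes were chosen by their calls, so the counts only describe them. Across 372 genes of the lists, it correlated at 0.24 with the mean of the other labelled maxillary libraries and at 0.51 with the labelled mandibular mean. The medial nasal prominence gave 0.75, the highest of the 22 groups. The maxillary replicates 1 to 4 were most like the maxillary arch or its epidermal ectoderm, at 0.62 to 0.74. The mandibular replicate 3 was most like the lateral nasal eminence (0.65) and replicate 4 most like E9.5 cranial mesenchyme (0.70). The mandibular replicates 1 and 2 were most like the rest of their own group (0.54 and 0.56). The next groups were almost equal, with 0.53 for the lateral nasal eminence in replicate 1 and 0.55 for E9.5 cranial mesenchyme in replicate 2. Across all genes, the maxillary replicate 5 correlated at 0.59, 0.55 and 0.54 with the mandibular replicates 1 and 3 and the maxillary replicate 4. Those arrays were of wide spread, like its own. It gave 0.36 with the maxillary replicate 2, also wide, and 0.12 to 0.2 with the narrow arrays. All these correlations are descriptions over genes of arrays that share a baseline. The part of array spread in them was not tested.

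The mandibular minus maxillary difference was then compared with the same difference at E9.5, which asks where the E10.5 libraries depart from the labels of a day earlier. The test of the difference between differences passed for 13 of 19938 genes (0.0652%), 8 positive (0.0401%) and 5 negative (0.0251%). Hand2 was 2.22, 1.84, 1.85, 1.94 and 4.22 in the E9.5 mandibular and -0.57, -0.87, 0.86, 0.45 and -0.24 in the E9.5 maxillary libraries. Its difference was 2.49 at E9.5 and -1.26 at E10.5, a change of -3.75 ± 0.46 (adjusted p = 4e-08). Pitx1, a homeobox factor of the mandible and oral ectoderm, was 3.48 higher under the mandibular label at E9.5 and -2.20 at E10.5, a change of -5.67 ± 1.00 (adjusted p = 0.0011). At E10.5 Pitx1 was 0.00, 0.23, -0.09 and 0.10 against 4.12, 1.65, 4.65, 0.13 and 0.74.

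Alx1 differed by -0.46 at E9.5 and 4.00 at E10.5 (change 4.46 ± 0.80, adjusted p = 0.0011), and Pax9 by -0.47 and 2.39 (2.86 ± 0.26, adjusted p = 7.9e-14). Dapl1 changed by -6.43 ± 1.44 and Cxcl14 by -4.27 ± 0.85. Itga3 changed by -1.21 ± 0.24. Pantr1 (6.01 ± 1.35), Spi1 (2.24 ± 0.49) and Nts (2.13 ± 0.42) changed in the positive direction.

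Against the libraries labelled epidermal ectoderm of the same arches, 12 genes passed (0.0602%), 6 in each direction (0.0301%). Barx1, a homeobox factor of jaw mesenchyme, was 3.36, 5.31, 3.36 and 5.29 in the mandibular and -0.05, 0.36, 2.28 and 0.94 in the maxillary ectoderm libraries. In the arch libraries it was -0.63, 0.11, 2.70 and -0.93 against 3.89, 1.80, 3.04, -0.13 and 1.14. Its difference was thus 3.44 in the ectoderm libraries and -1.64 in the arch libraries, a change of -5.08 ± 0.73 (adjusted p = 7.1e-06). Hand2 changed in the same direction, by -3.54 ± 0.49 (adjusted p = 4.1e-06), as did Dlx1, by -2.47 ± 0.55 (adjusted p = 0.037). Kazald1 (-3.98 ± 0.83), a secreted growth factor binding protein, and Zadh2 (-2.45 ± 0.53) completed the negative genes named. Alx1 (3.93 ± 0.84), Gata2 (1.94 ± 0.30) and Pax9 (1.70 ± 0.27) were positive, with Ppp1r3b (0.69 ± 0.13) and Pate12 (0.61 ± 0.13) as smaller changes. Ppp1r3b differed by 0.07 in the arch and by -0.63 in the ectoderm libraries, and Pate12 by 0.27 and -0.34. Both comparisons use the E10.5 arch libraries, so they are not independent. The second also rests on mandibular ectoderm libraries whose Krt14 and Hand2 go against their label.

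**Figure D4:**
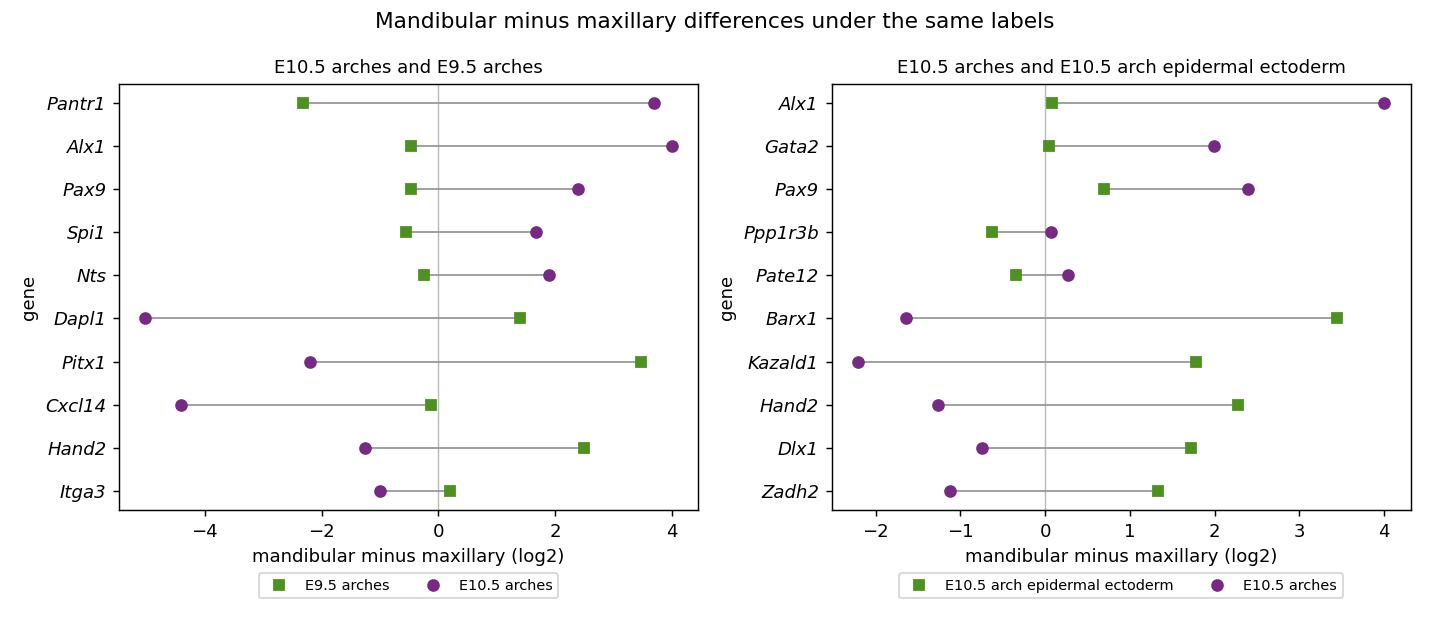
Mandibular minus maxillary differences (log2, x axes) of the genes with the largest called changes (rows); purple circles are the E10.5 arch libraries and green squares the E9.5 arches (left) or the E10.5 arch epidermal ectoderm (right). Hand2 is at 2.49 and 2.28 in the comparison groups and at -1.26 in the E10.5 arches.

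Of 28 gene lists, 13 held a called gene and 15 held none, where 0.772% of all genes were called. Cxcl14 was the 1 lower gene of 22 axon guidance and chemokine genes (0.261% of all genes were lower). None of 18 BMP, 22 WNT, 14 retinoic acid, 15 Notch, 16 cell cycle, 15 hypoxia and glycolysis, 13 arch muscle, 11 chondrogenic, 8 erythroid, 14 neuron, 16 neural epithelium, 9 olfactory placode or 10 oral ectoderm and pituitary placode genes passed. Their members with the largest differences showed the spread behind this. Wnt4 was 0.04, -0.73, 0.08 and -0.69 against 4.57, 0.22, 4.42, 0.25 and -0.01, high in the maxillary replicates 1 and 3 (-2.21 ± 0.64, adjusted p = 0.075). Bmp4, a ligand of facial epithelium and mesenchyme, was -0.85, 0.36, 3.05 and 1.47 against 1.17, 3.67, 2.73, 2.18 and 1.79 (-1.30 ± 0.86, adjusted p = 0.68). Isl1, a LIM homeobox gene, was 1.89 and 3.85 in the maxillary replicates 2 and 3 and between -0.61 and -0.28 elsewhere (-1.36 ± 0.80, adjusted p = 0.60). Sox2, of neural and placodal epithelium, ran from -3.76 to -0.56 under the mandibular label and from -4.04 to 1.24 under the maxillary one (-0.70 ± 0.76, adjusted p = 0.88). The differences in Dhrs3 (1.11 ± 0.42), Mfng (1.58 ± 0.62), Plk1 (1.12 ± 0.52), Ankrd37 (-0.77 ± 0.72), Klf1 (1.24 ± 0.50), Eya2 (0.70 ± 0.29), Sox9 (0.53 ± 0.34) and Foxd1 (1.71 ± 0.87) did not pass either.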

How the data were processed

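Gene expression was measured by microarray. Per the submitters' processing notes, RMA and build mm9 were used. The authors deposited linear ratios. No label describes their baseline, but in 21 samples, among them the mandibular replicate 1 and the maxillary replicate 2, every probe set had a median of 1 (within 6e-08). The design had assumed log2 levels, and log2 of the ratios was used in their place. No detection call was used. Of 35557 probe sets, 28856 had values and 21789 of these had 1 gene symbol. Where a gene had more than 1 probe set (999 genes), that of highest mean log2 ratio stood for it.

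Group means of 102 samples in 22 groups were fitted with limma 3.58.1 in R 4.3.3 (80 residual degrees of freedom), after a test of the script on simulated data, and genes were called at an adjusted p under 0.05. An E9.5 sample with conflicting labels was left out. The members and the 28 lists were chosen with earlier results of these data known. Genes were named by rule: in either direction the 12 largest called differences without overlap, predicted genes, receptors of smell and taste and small RNAs passed over; Alx1, Hand2 and Krt14; from every list at most 4 called members or else the largest; and the 5 largest called per direction in the differences of comparisons. Dapl1, Sostdc1, Gata2, Pantr1, Lhx8, Nts, Vsig2, Isl2, Mlana and list members beyond the rule were named after their values were seen. Alternatives covered normalization, array weights, variance trend, probe set choice, a pseudocount of 0.1, bounded values, samples fitted, a replicate block and each library left out. Added after seeing the data were a covariate for array spread (the 5th percentile) and arrays of wide or narrow spread alone. Promoter sequences are from RefSeq.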

Additional observations from a re-analysis of the deposited data

Results flagged for a closer look

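Of 134 groups of libraries examined for 67 named genes, 12 held a library far from the others of its group (8.96%). Chance flags about 1 in 20 for genes chosen without regard to their values. Some of these genes were named after their values were seen, so the 2 shares cannot be compared. The maxillary replicate 5 was low for Cxcl14 (0.15, others 4.76 to 5.98), Dapl1 (0.15, others 5.04 to 7.03) and Sostdc1 (0.09, others 4.52 to 5.13). The same library was high for Emcn (1.46), Shisal2a (1.40) and Stmn2 (-0.56, others -1.99 to -1.89). The maxillary replicate 2 was high for Foxf1 (4.56, others -0.20 to 0.78) and Ccdc84 (-0.87, others -1.74 to -1.49). Replicate 1 was high for Hand1 (2.93, others 0.18 to 0.65) and replicate 4 for Serpinb1b (1.30). The mandibular replicate 3 was high for Cdhr4 (6.31, others 1.35 to 1.75) and Ecscr (2.55, others 1.38 to 1.49).

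The mandibular minus maxillary difference at E10.5 was tested against that of E9.5, and the change passed limma's test for Pantr1 (6.01), Alx1 (4.46), Pax9 (2.86), Spi1 (2.24) and Nts (2.13). It also passed for Dapl1 (-6.43), Pitx1 (-5.67), Cxcl14 (-4.27), Hand2 (-3.75) and Itga3 (-1.21). Against the epidermal ectoderm libraries of the same arches, the change passed for Alx1 (3.93), Gata2 (1.94), Pax9 (1.70), Ppp1r3b (0.69) and Pate12 (0.61). In the negative direction it passed for Barx1 (-5.08), Kazald1 (-3.98), Hand2 (-3.54), Dlx1 (-2.47) and Zadh2 (-2.45).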

How the results depend on the processing

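The count of 154 called genes (102 higher, 52 lower under the mandibular label) was 155 with a pseudocount of 0.1 and 154 under the variance trend, the mean of probe sets and the omission of bounded values. Quantile normalization gave 177 (72 and 105), array weights 729 (334 and 395), E10.5 libraries only 44 (32 and 12), the omission of arrays with an SD over 0.85 74 (41 and 33), and the 9 libraries alone 1 (1 and 0). The settings added after seeing the data gave 287 (154 and 133) with the array covariate, 426 (314 and 112) with wide arrays and 126 (38 and 88) with narrow arrays. With single libraries left out, counts ran from 92 (without the maxillary replicate 4) to 274 (without the maxillary replicate 5), from 55 to 149 for higher and from 36 to 125 for lower genes, with 94 in all without the mandibular replicate 3.

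Alx1 kept its direction under all 22 alternatives, from 3.54 to 4.5, and lost its call in the 9 libraries alone (4.00, adjusted p = 0.26) and with the replicate block. Hand2 lost its call under quantile normalization (-1.65, 0.072), in the 9 libraries alone (-1.26, 0.72), in E10.5 libraries only (-1.26, 0.073), without arrays of SD over 0.85 (-1.55, 0.13) and in wide arrays (-0.34, 0.92). With single libraries left out it ran from -1.49 to -0.99 and lost its call in 6 of 9 cases. Krt14 lost its call in the 9 libraries alone (-2.89, 0.68), in E10.5 libraries only (-2.89, 0.11) and in wide arrays (-1.45, 0.50), and ran from -3.59 to -2.36 with single libraries left out.

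Of the changes against E9.5 (13 genes), 23 passed under quantile normalization, 238 with array weights, 31 without the arrays of SD over 0.85, and 14 to 38 with single libraries left out. Of those against ectoderm (12 genes), the counts were 94 with array weights, 27 without those arrays and 8 to 20 with single libraries left out.

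The labels do not say whether replicate numbers pair the libraries. Deviations of same-numbered libraries correlated at -0.28, 0.08, -0.13 and -0.19, and those of libraries with unlike numbers at -0.46 to 0.33. The arrays also differ in spread, so these correlations cannot settle whether libraries share an embryo. With the replicate number as a block in the 9 libraries, 0 genes passed limma's test (0 higher, 0 lower; 1230 at an unadjusted p under 0.05), beside 1 without the block. Alx1 was then 4.29 (adjusted p = 0.45), Hand2 -1.49 (0.57) and Krt14 -3.59 (0.49).

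Reversed signs occurred where the main difference had not passed, except for Nts and Vsig2. Lhx8 (0.26) turned to -0.64 under quantile normalization, -1.76 with array weights, -2.45 without arrays of SD over 0.85, -3.02 in narrow arrays, and between -0.54 and 1.05 with single libraries left out, with a negative sign in 4 of 9 cases (-0.54, -0.52, -0.11 and -0.09). Sox2 (-0.70) turned to 0.33 with array weights, 0.98 without arrays of SD over 0.85 and 0.83 in narrow arrays. Without arrays of SD over 0.85, Ankrd37 was 0.45, Dhrs3 -0.03, Nts -0.08 and Vsig2 -0.16. In narrow arrays Nts was -0.05 and Plk1 -0.07, and in wide arrays Barx1 was 0.10, Emcn -0.18 and Stmn2 -0.56. The Krt14 difference of maxillary arch and its ectoderm turned to 0.26 with array weights, 0.89 without arrays of SD over 0.85, and ran from -0.95 to 0.28 (0.01 without the maxillary replicate 4) with single libraries left out. That of the mandibular arch and its ectoderm (0.00) was 0.00 with a pseudocount and ran from -0.15 to 0.11 (0.09 without the mandibular replicate 2) with single libraries left out. Against E9.5 it was -0.07 with array weights, -0.29 without arrays of SD over 0.85 and ran from -0.13 to 0.12 (-0.04 without the mandibular replicate 3) with single libraries left out. Alx1 of the maxillary arches against E9.5 was -0.05 with array weights and ran from -0.17 (without the maxillary replicate 1) to 0.66 with single libraries left out. The cause of these changes was not tested. No signal over background was used here, so weak genes could not be set apart.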
